A study of Mus musculus with 14 samples.

Results

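The matrix metalloproteases, ADAM and ADAMTS proteases, their tissue inhibitors and the plasminogen activator genes were followed in colorectal tumors of 2 mouse models. Members were the probe sets that carry 1 gene symbol in the deposited expression table and whose symbol names an Mmp, Adam, Adamts or Timp gene, Plat, Plau or Plaur. The rule found 83 of 22690 probe sets, for 56 genes: 25 probe sets for 18 matrix metalloproteases, 33 for 24 ADAM genes, 8 for 7 ADAMTS genes, 13 for the 4 tissue inhibitors and 4 for the 3 plasminogen activator genes. Another 2 probe sets that list several symbols, a family gene among them, were left out. Each was measured as an array intensity on 14 single-colour Affymetrix arrays of total RNA.

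Colitis-associated (CAC) tumors came from 4 wild-type C57BL/6J mice, 1 mouse per array, given azoxymethane at 10 mg/kg intraperitoneally and then 3 cycles of dextran sodium sulfate (DSS) at 2.5% in the drinking water, each for 7 days with 14 days of recovery. Azoxymethane is a colon carcinogen and DSS injures the colon lining and causes colitis. CAC control epithelium was 2 arrays of tumor-free distal colon epithelium from C57BL/6J mice, each a pool of 5 mice, and the labels do not say whether those mice had received azoxymethane or DSS. Sporadic tumors came from 5 C57BL/6J-ApcMin/+/J mice, 1 mouse per array. These mice carry a germline truncating mutation in 1 copy of Apc, the brake on Wnt signalling. Sporadic control epithelium was 3 arrays of tumor-free distal colon epithelium from mice of that ApcMin/+ strain, each a pool of 4 mice, so the controls carry the Apc mutation too. All mice were male, and no age is given in the labels. Tumors were taken from the last stretch of the large intestine and chosen for like size. They were lysed whole, after the same incubation that was used to free the epithelium of the controls, so a tumor array holds stroma and blood cells that a control array largely lacks. All CAC arrays are labelled block 1 and all sporadic arrays block 2, so experimental block and tumor model cannot be told apart.

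Matrix metalloproteases are zinc enzymes made as inactive precursors, secreted or held at the cell surface, which cut collagens, other matrix proteins and signalling proteins once activated. ADAM proteases mainly release the outer part of membrane proteins such as growth factor precursors, cytokines and cadherins, and ADAMTS proteases are secreted and cut matrix proteoglycans. The tissue inhibitors (Timp1 to Timp4) bind and block these enzymes, and the plasminogen activators Plat and Plau turn plasminogen into plasmin, which can itself activate metalloproteases. In colorectal tumors much of this system is known to be made by fibroblasts, endothelium, macrophages and neutrophils, while Mmp7 is made by the tumor epithelium itself.

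Array medians lay between 15 and 18, and GCRMA, the authors' normalization, puts unexpressed probe sets at a floor of about 5, so a group mean under 10 was taken as not expressed. Group levels here are geometric means. An intensity is not per transcript length and was not compared between genes. Arrays of 1 group correlated at 0.97 or more on the log2 scale. The summed intensity of 10 fibroblast markers was 4690 to 10328 in CAC tumors and 152 to 266 in CAC controls, and 7587 to 13085 in sporadic tumors and 65 to 84 in sporadic controls. For 10 macrophage markers the sum was 4189 to 5590 in CAC tumors and 321 to 403 in CAC controls, and 2496 to 5035 in sporadic tumors and 357 to 417 in sporadic controls. The 9 measured epithelial markers summed to 50614 to 61524 in CAC tumors and 68742 to 71341 in CAC controls, and to 43427 to 50649 in sporadic tumors and 57580 to 59459 in sporadic controls. Of the fibroblast markers, Col1a1, Col1a2, Col6a1, Pdgfra, Pdgfrb, Lum and Thy1 were under 10 in both control groups, and Lum stayed under 10 in every group. Among macrophage markers Cd68, Csf1r, Arg1 and Tyrobp were under 10 in both control groups, and Itgam and Fcgr1 were under 10 in every group. The part that these cells play in the tumor changes below was not tested, and in these bulk samples fewer cells of a type and less RNA per cell cannot be told apart.

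Of the 83 probe sets, 39 had every group mean under 10 and were counted as not expressed, and 26 genes had no expressed probe set. Those 26 include the germ-cell ADAMs Adam2, Adam3, Adam5 and Adam18, the brain ADAMs Adam22 and Adam23, the metalloproteases Mmp16, Mmp19, Mmp20 and Mmp24, and Plau, the urokinase gene. At the other end, 31 probe sets of 21 genes had a mean of 32 or more in at least 1 group. The members between those bounds included Adam12, Adam19, Adamts4, Mmp23, Mmp3 and Mmp8.

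Against their controls, most of the brighter members were higher in both tumor models. In CAC tumors 21 of 83 members rose at an adjusted p under 0.05, beside 14.2% of all probe sets, and 21 fell, beside 25.6% of all probe sets. Of these 21 falls, 14 had both means under 10, with log2 changes of -0.59 to -0.22. In sporadic tumors 26 members rose, beside 17.8% of all probe sets, and 17 fell, beside 28.2%, with 12 of the 17 falls under 10 in both groups. Among members that reach a mean of 32 in the groups compared, 20 of 29 rose and 4 fell in CAC tumors, where 28.5% and 21.3% of all such probe sets rose and fell. In sporadic tumors the same counts were 21 of 30 and 4 of 30, beside 33.2% and 28% of all such probe sets. The median log2 change of these members was 2.16 in CAC tumors, against 0.10 for all probe sets of that brightness, and 2.39 in sporadic tumors, against 0.07. No test was run on the members as a set. A member at the floor in controls reaches a mean of 32 only through its tumors, as Mmp10 and Mmp13 do. The counts and medians at this brightness therefore follow in part from the filter, which the probe sets set beside them passed in the same way. Without the filter, the median log2 change of the 83 members was 0 in both models.

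By family, at this brightness, 9 of 11 metalloprotease probe sets rose and 1 fell in CAC tumors, and 10 of 11 rose and 0 fell in sporadic tumors. For the tissue inhibitors 6 of 9 rose and 1 fell in CAC tumors, and 5 of 10 rose and 2 fell in sporadic tumors. Of the ADAM probe sets 3 of 6 rose and 1 fell in CAC tumors, and 4 of 6 rose and 1 fell in sporadic tumors. Both probe sets of Plat and Plaur rose in both models, and the single ADAMTS probe set at this level fell in both. The tumor samples lay wholly above their controls for 21 of the 21 risers in CAC tumors and 25 of the 26 in sporadic tumors. These members had already passed the test, so the lack of overlap adds nothing to the calls. The share among all risers on the array was not counted. Of the 31 members with a mean of 32 in any group, 21 rose in each model and 19 rose in both, which is 90.5% of either list. No member of the 31 rose in 1 model and fell in the other. How often all probe sets of that brightness share a call was not counted, so neither number is read as a trait of the members. The same brightness filter chose the 31.

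**Figure D1:**
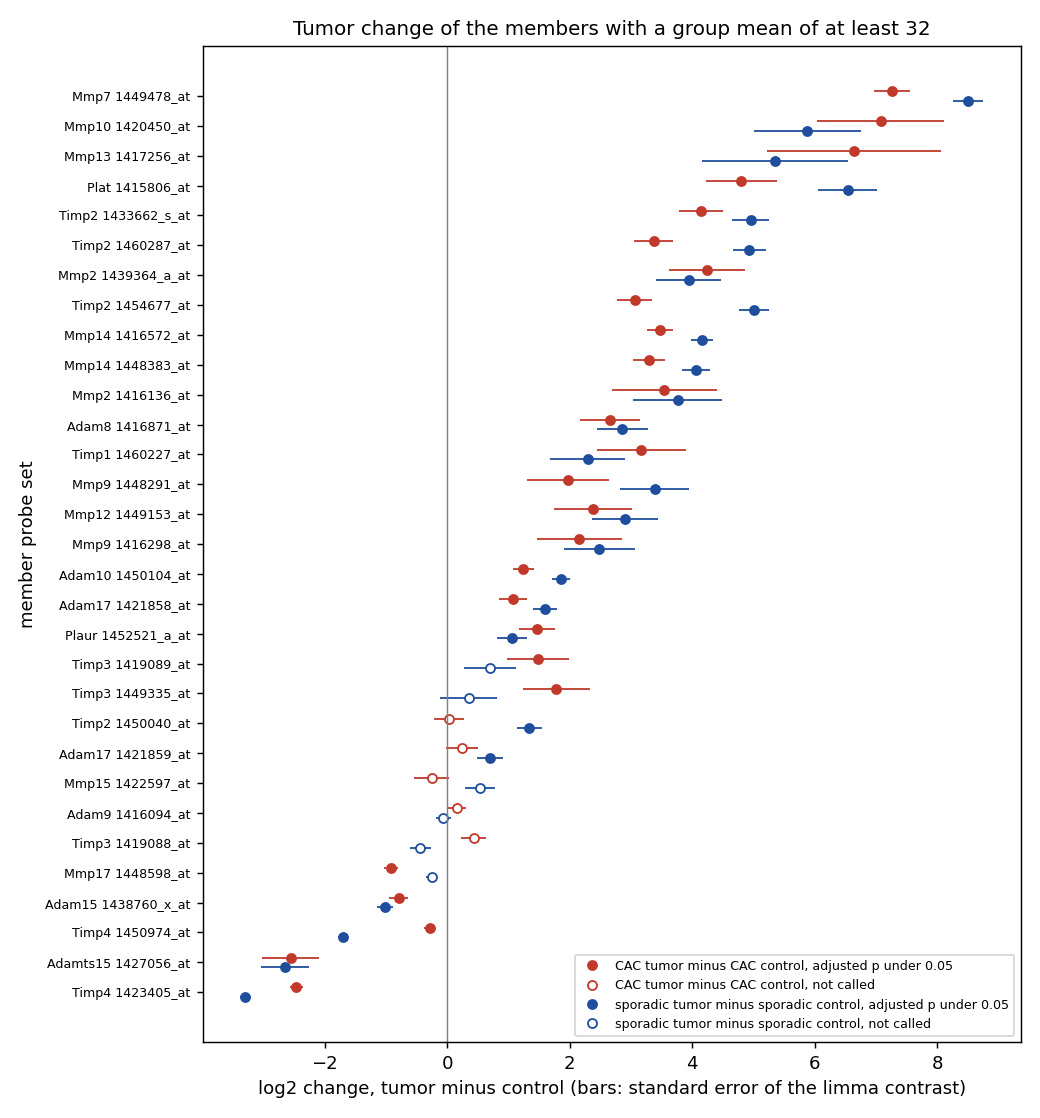
Log2 change of tumor over control (x axis) for the 31 members with a group mean of 32 or more, with CAC and sporadic tumors as separate points per probe set and bars for the standard error. Filled points passed the test at an adjusted p under 0.05. The points of Mmp7 lie furthest to the right in both models, and those of Timp4 1423405_at and of Adamts15 furthest to the left.

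Mmp7, or matrilysin, is a small secreted metalloprotease of epithelial cells and of the Paneth cells of the mouse small intestine, where it activates the antimicrobial defensins, and its gene is a known Wnt target. Its probe set 1449478_at measured 2966, 2455, 3162 and 1776 in CAC tumors 1 to 4, against 17 and 16 in the CAC controls. In sporadic tumors 1 to 5 it measured 2295, 1359, 2995, 2036 and 2627, against 6, 6 and 6 in the sporadic controls. Every tumor of both models was far above every control, and the tumors of the 2 models overlapped. Mmp7 rose by 7.26 ± 0.29 on the log2 scale in CAC tumors (SE; limma adjusted p = 3.37e-09) and by 8.51 ± 0.24 in sporadic tumors (adjusted p = 1.35e-10). In sporadic tumors this was the largest rise of any member. In CAC tumors Mmp10, at 7.08 ± 1.03, was within its error of Mmp7, and with the replicate number as a block Mmp10 and Mmp13 gave 7.89 and 7.68, against 7.24 for Mmp7. The control groups differed as well, with 16.5 in CAC controls and 6.00 in sporadic controls, a log2 difference of 1.46 ± 0.31 (adjusted p = 0.00983). With an offset of 16 added to the intensities it was 0.56 (adjusted p = 0.260), and without CAC control 1 it did not pass either (adjusted p 2.18e-04 to 0.260 over the alternatives). The test of the difference between the tumor changes gave -1.25 ± 0.38 (adjusted p = 0.0814) and did not pass. The 3 measured Paneth cell markers also moved with the tumors, with sums of 28524 to 32047 in CAC tumors and 89 to 104 in CAC controls, and 13677 to 34589 in sporadic tumors and 65 to 84 in sporadic controls. Their part in the Mmp7 level was not tested.

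Mmp10 and Mmp13 were at the floor in all control epithelium and varied widely among tumors. Mmp10, stromelysin-2, which cuts proteoglycans and fibronectin and activates other metalloproteases, measured 2042, 696, 551 and 553 in CAC tumors 1 to 4 on probe set 1420450_at, against 6 and 6 in CAC controls. In sporadic tumors 1 to 5 it measured 1380, 1003, 272, 90 and 120, against 6, 5 and 6 in sporadic controls. Mmp13, or collagenase-3, which cuts fibrillar collagen, measured 1879, 700, 305 and 324 in the CAC tumors on probe set 1417256_at, against 6 and 6 in their controls. In the sporadic tumors Mmp13 measured 1811, 460, 377, 30 and 51, against 5, 5 and 6 in their controls. No tumor overlapped a control for either gene, and tumor 1 of each model had the highest value of both. Mmp10 rose by 7.08 ± 1.03 in CAC tumors (adjusted p = 3.08e-04) and by 5.88 ± 0.87 in sporadic tumors (adjusted p = 2.53e-04). Mmp13 rose by 6.64 ± 1.42 in CAC tumors (adjusted p = 0.00361) and by 5.35 ± 1.20 in sporadic tumors (adjusted p = 0.00381). Between the tumor types neither passed the test, with CAC over sporadic log2 differences of 1.29 ± 0.80 for Mmp10 and 1.47 ± 1.10 for Mmp13 (adjusted p = 0.354 and 0.454).

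The other members of the metalloprotease cluster on chromosome 9 showed signal in few tumors, apart from Mmp12. Mmp12, the macrophage elastase, measured 71, 184, 59 and 23 in CAC tumors on probe set 1449153_at, against 11 and 14 in CAC controls, and 112, 133, 60, 66 and 71 in sporadic tumors, against 10, 11 and 13 in sporadic controls. It rose by 2.39 ± 0.64 in CAC tumors (adjusted p = 0.0116) and by 2.90 ± 0.54 in sporadic tumors (adjusted p = 0.00119), and every tumor lay above every control. The CAC call was lost without CAC control 1 and in a fit of the CAC arrays alone (adjusted p 0.00125 to 0.118 over the alternatives). Mmp3, stromelysin-1, measured 524, 52, 5 and 6 in CAC tumors and 6 and 6 in CAC controls, and 68, 5, 6, 5 and 5 in sporadic tumors and 5 on each sporadic control. It was thus above the floor in CAC tumors 1 and 2 and sporadic tumor 1 alone, and neither change passed (2.33 ± 1.70 and 0.81 ± 1.44, adjusted p = 0.326 and 0.740). Mmp8, the neutrophil collagenase, measured 154 in CAC tumor 1 and 4 or 5 on every other array. Mmp1b and Mmp20 were not expressed.

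**Figure D2:**
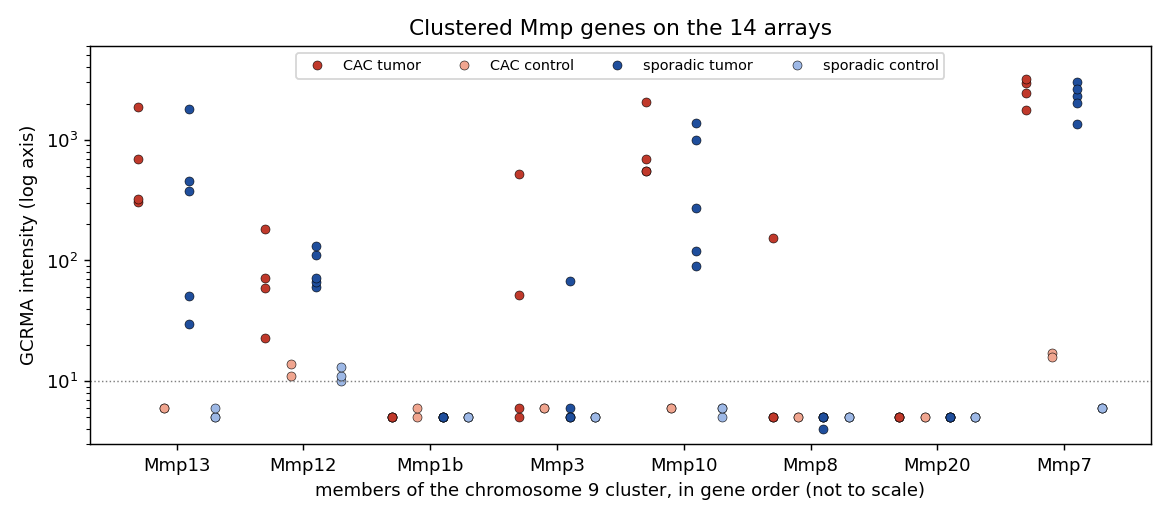
Intensity (log scale) of the 8 cluster members in their gene order on chromosome 9, from Mmp13 to Mmp7, with 1 point per array and 1 colour per group. Mmp7, Mmp10 and Mmp13 are above the dotted floor line of 10 in every tumor and below it in controls, except for Mmp7 in CAC controls at 17 and 16. Mmp3 is above it in 3 tumors and Mmp8 in 1.

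These genes neighbour each other: in the RefSeq gene table (GRCm38.p6) the order is Mmp13, Mmp12, Mmp1b, Mmp3, Mmp1a, Mmp10, Mmp8, Mmp27, Mmp20, Mmp7, and Mmp1a and Mmp27 have no member here. For the 3 members with the largest rises in CAC tumors, 1 promoter window each is shown. It was chosen because it holds an AP-1 motif, written TGANTCA, close to the transcription start. AP-1 is the Jun and Fos transcription factor pair, known to act on several metalloprotease promoters. Each window runs from 250 bases before to 50 bases after the RefSeq start on GRCm38.p6, plus strand, 5′ to 3′, with the AP-1 match in capitals.
Mmp7: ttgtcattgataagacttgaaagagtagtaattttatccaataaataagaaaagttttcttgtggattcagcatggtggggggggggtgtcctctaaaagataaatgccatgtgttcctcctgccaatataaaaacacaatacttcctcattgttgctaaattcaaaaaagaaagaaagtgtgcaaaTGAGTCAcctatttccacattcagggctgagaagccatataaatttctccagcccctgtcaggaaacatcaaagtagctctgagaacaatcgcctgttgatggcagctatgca
Mmp10: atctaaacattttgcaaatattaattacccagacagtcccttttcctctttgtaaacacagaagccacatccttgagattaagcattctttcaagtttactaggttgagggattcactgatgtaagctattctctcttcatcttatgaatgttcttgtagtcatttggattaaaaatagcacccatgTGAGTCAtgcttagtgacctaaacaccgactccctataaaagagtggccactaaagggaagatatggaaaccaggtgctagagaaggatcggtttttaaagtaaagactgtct
Mmp13: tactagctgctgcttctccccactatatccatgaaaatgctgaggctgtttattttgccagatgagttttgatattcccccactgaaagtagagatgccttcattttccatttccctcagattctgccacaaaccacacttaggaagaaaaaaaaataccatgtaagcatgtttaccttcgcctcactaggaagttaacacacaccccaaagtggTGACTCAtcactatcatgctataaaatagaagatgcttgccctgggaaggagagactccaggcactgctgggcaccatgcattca
The windows lie at chr9:7691840-7692139 for Mmp7, chr9:7502092-7502391 for Mmp10 and chr9:7272264-7272563 for Mmp13. A second Mmp7 window, at chr9:7692091-7692390, holds no AP-1 match and is not shown. The match begins at -63 in Mmp7, -63 in Mmp10 and -35 in Mmp13, counted from the start. A match also lies at -46 in Mmp3, which was above the floor in some tumors. Another lies at -44 in a window of Mmp12, which was above the floor in every tumor, and the other Mmp12 window holds none. The near-floor genes Mmp1b and Mmp20 hold 1 too, at -93 and -95. Of the 30 member genes with a window, 10 hold a match on either strand, and 7 of the 13 Mmp genes do, while 9.0% of the 27025 genes in the table do. All 7 lie in the chromosome 9 cluster, where Mmp8 holds none. Outside it, Mmp11, Mmp14, Mmp15, Mmp23 and Mmp24 hold none. The 7 are neighbours and cannot be counted as independent genes. A match is a stretch of letters and was not tested as a binding site.

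Other motifs were looked for in the same windows. The TCF/LEF letters CTTTGAT or CTTTGTT, the motif through which Wnt signalling acts, were in 4 of the 30 member genes and in 10.6% of all genes. The Mmp7 window shown above holds 1. The PEA3/ETS letters AGGAAG were in 16 of the 30 member genes and 38.4% of all genes. The Mmp14 window, chr14:54431348-54431647 on the plus strand, holds no AP-1 match. Both strands were searched for each motif, and the windows do not reach distant enhancers.

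The gelatinases Mmp2 and Mmp9, which cut denatured collagen and basement membrane collagen, were higher in both tumor types. Mmp2, largely a fibroblast product, measured 233, 88, 73 and 111 in CAC tumors on probe set 1439364_a_at, against 6 and 6 in CAC controls, and 142, 198, 63, 44 and 47 in sporadic tumors, against 5, 5 and 6 in sporadic controls. It rose by 4.24 ± 0.63 in CAC tumors (adjusted p = 3.28e-04) and by 3.94 ± 0.53 in sporadic tumors (adjusted p = 1.24e-04). Tumors did not overlap controls, and a second Mmp2 probe set, 1416136_at, gave 3.54 ± 0.86 and 3.77 ± 0.72. Mmp9, known mainly from neutrophils and macrophages, measured 58, 98, 172 and 92 in CAC tumors on probe set 1416298_at, against 25 and 19 in CAC controls. In sporadic tumors Mmp9 measured 144, 508, 111, 115 and 57, against 27, 24 and 24 in sporadic controls. Again no tumor overlapped a control, and sporadic tumor 2 stood highest. The rise was 2.16 ± 0.69 in CAC tumors (adjusted p = 0.0279) and 2.48 ± 0.58 in sporadic tumors (adjusted p = 0.00497). The CAC call for Mmp9 did not hold without CAC tumor 2, without CAC tumor 3, without either CAC control or with an offset of 16 (adjusted p 0.00317 to 0.149 over the alternatives). The sum of 6 measured neutrophil markers was 549 to 13603 in CAC tumors and 72 to 73 in CAC controls, and 784 to 3163 in sporadic tumors and 53 to 63 in sporadic controls, and its part in Mmp9 was not tested. Of these markers, Mpo and Fpr1 were under 10 in every group.

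Among the membrane-type metalloproteases the 2 models differed. Mmp14, the membrane-anchored enzyme that activates Mmp2 together with Timp2, measured 497, 517, 406 and 346 in CAC tumors on probe set 1448383_at, against 36 and 55 in CAC controls. In sporadic tumors Mmp14 measured 1263, 1228, 744, 787 and 963, against 68, 54 and 54 in sporadic controls. Every sporadic tumor was above every CAC tumor, and every tumor above every control. It rose by 3.29 ± 0.26 in CAC tumors (adjusted p = 2.91e-06) and by 4.06 ± 0.22 in sporadic tumors (adjusted p = 8.06e-08), and CAC tumors were lower than sporadic tumors by -1.16 ± 0.20 (adjusted p = 0.00337). The second probe set, 1416572_at, gave -1.49 ± 0.17 between the tumor types (adjusted p = 1.66e-04). On that probe set the CAC controls were also lower than the sporadic controls, by -0.81 ± 0.23 (adjusted p = 0.0392), a call lost in 10 of 20 alternatives (adjusted p up to 0.159). The difference of the tumor changes did not pass on either probe set.

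Mmp15, a related membrane-type enzyme, measured 85, 126, 170 and 113 in CAC tumors and 129 and 158 in CAC controls, and 278, 558, 439, 393 and 357 in sporadic tumors and 241, 287 and 290 in sporadic controls. Tumors and controls overlapped in both models, and neither tumor change passed (-0.25 ± 0.29 and 0.54 ± 0.24, adjusted p = 0.560 and 0.0947). Yet all CAC tumors lay below all sporadic tumors, by -1.72 ± 0.22 (adjusted p = 4.31e-04), and the CAC controls lay below the sporadic controls by -0.93 ± 0.30 (adjusted p = 0.0692). Mmp17, a metalloprotease held on the membrane by a lipid anchor, measured 17, 18, 17 and 18 in CAC tumors, against 28 and 39 in CAC controls, and 16, 16, 15, 16 and 15 in sporadic tumors, against 21, 17 and 18 in sporadic controls. It fell by 0.92 ± 0.11 in CAC tumors (adjusted p = 9.40e-05), and the change in sporadic tumors was -0.25 ± 0.10 (adjusted p = 0.0508). That difference between the changes passed at -0.66 ± 0.15 (adjusted p = 0.0191) and was lost with the replicate number as a block (adjusted p = 0.114) and in a fit without the dimmer probe sets (2.77e-04 to 0.114 over the alternatives). Tumor levels were nearly equal in the 2 models, and the CAC controls exceeded the sporadic controls by 0.83 ± 0.12 (adjusted p = 9.03e-04, up to 0.125 in a fit of the controls alone).

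Mmp11, or stromelysin-3, a fibroblast enzyme of many carcinomas that furin activates inside the cell, measured 9, 10, 9 and 9 in CAC tumors and 9 and 8 in CAC controls, and 16, 31, 22, 25 and 32 in sporadic tumors and 9, 6 and 8 in sporadic controls. Every sporadic tumor lay above all other arrays. The log2 change was 0.12 ± 0.25 in CAC tumors (adjusted p = 0.805), and Mmp11 rose by 1.69 ± 0.21 in sporadic tumors (adjusted p = 7.52e-05). The difference between those changes passed at -1.57 ± 0.33 (adjusted p = 0.0126). No group mean of Mmp11 reached 32, so it is a dim signal on this array.

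**Figure D3:**
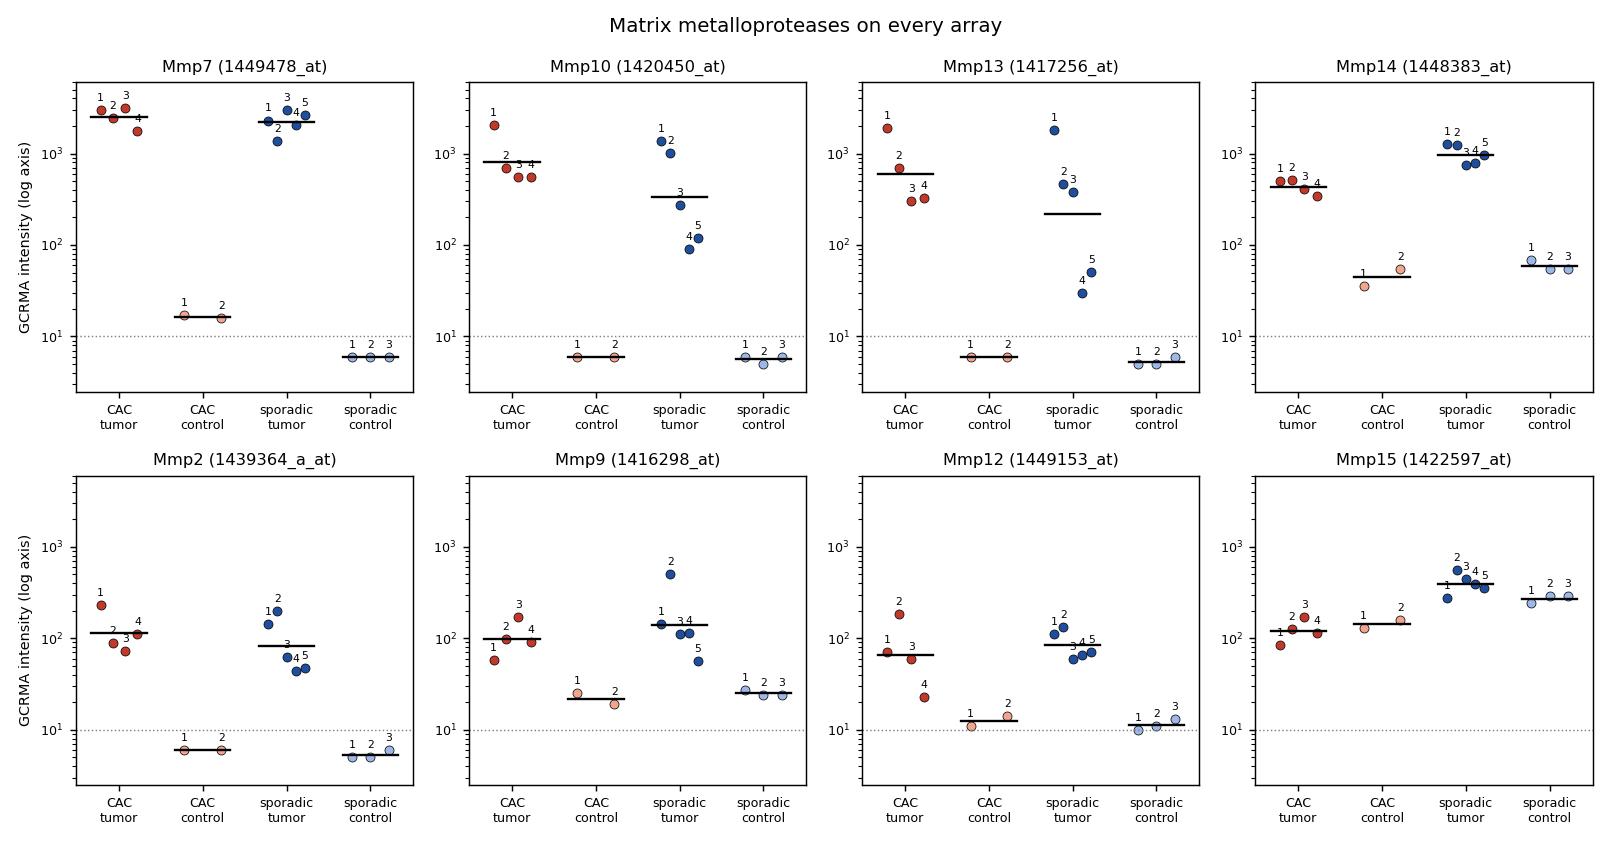
Intensity (log scale) of 8 metalloproteases on each array, with CAC tumors, CAC controls, sporadic tumors and sporadic controls from left to right. Each point is 1 array marked with its replicate number, the black line is the geometric mean and the dotted line the floor of 10; Mmp14 and Mmp15 are lower in all CAC tumors than in all sporadic tumors.

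Adam10 and Adam8 rose in both tumor types, while the 3 probe sets of Adam17 disagreed in CAC tumors and Adam9 passed in neither model. Adam10, which cuts Notch receptors and E-cadherin, measured 182, 148, 241 and 201 in CAC tumors, against 73 and 88 in CAC controls, and 171, 230, 183, 194 and 172 in sporadic tumors, against 51, 50 and 55 in sporadic controls. Tumors and controls did not overlap, and it rose by 1.25 ± 0.17 in CAC tumors (adjusted p = 2.30e-04) and by 1.86 ± 0.15 in sporadic tumors (adjusted p = 2.17e-06). Adam17, the enzyme that releases tumor necrosis factor and several ligands of the epidermal growth factor receptor, measured 129, 233, 186 and 178 in CAC tumors on probe set 1421858_at, against 67 and 106 in CAC controls. In sporadic tumors Adam17 measured 223, 182, 211, 201 and 202, against 67, 57 and 80 in sporadic controls. It rose by 1.08 ± 0.23 in CAC tumors (adjusted p = 0.00375) and by 1.59 ± 0.20 in sporadic tumors (adjusted p = 6.75e-05), with no overlap. Here too the CAC call was lost without CAC control 1 and in a fit of the CAC arrays alone (adjusted p 0.00111 to 0.0677 over the alternatives). The other Adam17 probe sets did not pass in CAC tumors: 1421859_at measured 41, 39, 59 and 74 there, overlapping 37 and 51 in CAC controls (0.24 ± 0.25, adjusted p = 0.521), and 1421857_at gave 0.60 ± 0.30 (adjusted p = 0.143). In sporadic tumors both rose, by 0.70 ± 0.21 and 1.22 ± 0.25 (adjusted p = 0.0202 and 0.00246).

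Adam8, known from leukocytes, measured 110, 72, 43 and 38 in CAC tumors, against 10 and 9 in CAC controls, and 90, 140, 41, 58 and 57 in sporadic tumors, against 10, 9 and 10 in sporadic controls. All tumors exceeded all controls. It rose by 2.66 ± 0.49 in CAC tumors (adjusted p = 0.00154) and by 2.86 ± 0.42 in sporadic tumors (adjusted p = 2.17e-04). Adam9 was bright and flat, at 207 to 261 in CAC tumors, 195 to 233 in CAC controls, 198 to 250 in sporadic tumors and 192 to 276 in sporadic controls, and passed in neither model. Adam15, which carries an integrin-binding motif, was lower in tumors: on probe set 1438760_x_at it measured 57, 57, 51 and 49 in CAC tumors, against 80 and 107 in CAC controls, and 57, 51, 50, 52 and 44 in sporadic tumors, against 119, 109 and 83 in sporadic controls. It fell by 0.79 ± 0.16 in CAC tumors (adjusted p = 0.00224) and by 1.02 ± 0.13 in sporadic tumors (adjusted p = 1.00e-04). An "_x_" probe set may also bind transcripts of other genes. Of the other 3 Adam15 probe sets, all near the floor with no mean above 14.3, 2 fell in both models.

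Of the secreted ADAMTS proteases, Adamts15, which cuts aggrecan and versican, was the one that reached the brighter range, and there in controls. It measured 7, 10, 11 and 18 in CAC tumors, against 34 and 120 in CAC controls, and 7, 6, 8, 7 and 6 in sporadic tumors, against 33, 56 and 41 in sporadic controls. The tumors were at or near the floor and did not overlap the controls. Adamts15 fell by 2.56 ± 0.46 in CAC tumors (adjusted p = 0.00133) and by 2.65 ± 0.39 in sporadic tumors (adjusted p = 2.45e-04). Adamts1, a related proteoglycan-cutting enzyme, measured 41, 13, 12 and 13 in CAC tumors and 10 and 7 in CAC controls, and 28, 28, 58, 33 and 22 in sporadic tumors and 7, 8 and 7 in sporadic controls. It rose by 2.12 on the log2 scale in sporadic tumors (adjusted p = 0.00167).

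Of the plasminogen activation genes, Plat and Plaur rose in both models and Plau could not be read. Plat, tissue-type plasminogen activator, measured 279, 971, 1746 and 782 in CAC tumors, against 20 and 39 in CAC controls, and 1550, 2195, 2184, 1246 and 1795 in sporadic tumors, against 17, 22 and 18 in sporadic controls. CAC tumor 1 was the lowest tumor, yet all tumors exceeded all controls. Plat rose by 4.80 ± 0.58 in CAC tumors (adjusted p = 7.39e-05) and by 6.54 ± 0.49 in sporadic tumors (adjusted p = 1.27e-06), and the tumor types differed by -1.17 ± 0.45 without passing (adjusted p = 0.112). Plaur, the receptor that holds urokinase at the cell surface, measured 126, 82, 84 and 98 in CAC tumors, against 45 and 27 in CAC controls, and 86, 106, 90, 71 and 152 in sporadic tumors, against 45, 51 and 45 in sporadic controls. It rose by 1.46 ± 0.29 in CAC tumors (adjusted p = 0.00253) and by 1.06 ± 0.25 in sporadic tumors (adjusted p = 0.00512), without overlap. Plau itself lay between 5 and 7 on every array and both of its probe sets, so its level could not be read from this array.

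The tissue inhibitors did not move as a group. Timp1, an inducible secreted inhibitor, measured 233, 122, 68 and 70 in CAC tumors, against 12 and 12 in CAC controls, and 178, 100, 46, 26 and 33 in sporadic tumors, against 12 on each sporadic control. Every tumor was above every control, and tumor 1 was the highest of each model. Timp1 rose by 3.17 ± 0.73 in CAC tumors (adjusted p = 0.00491) and by 2.29 ± 0.61 in sporadic tumors (adjusted p = 0.0106).

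Timp2, the inhibitor that also bridges Mmp14 to the Mmp2 precursor, measured 325, 318, 273 and 289 in CAC tumors on probe set 1460287_at, against 35 and 24 in CAC controls. In sporadic tumors Timp2 measured 539, 851, 658, 529 and 625, against 12, 27 and 27 in sporadic controls. Every sporadic tumor exceeded every CAC tumor, and no tumor overlapped a control. It rose by 3.37 ± 0.32 in CAC tumors (adjusted p = 1.16e-05) and by 4.94 ± 0.27 in sporadic tumors (adjusted p = 7.23e-08). CAC tumors were lower than sporadic tumors by -1.07 ± 0.25 (adjusted p = 0.0146), a call lost with the replicate number as a block (adjusted p = 0.0701, 0.00142 to 0.0701 over the alternatives). A second probe set, 1454677_at, also gave -1.07 ± 0.22 between the tumor types (adjusted p = 0.00923, or 0.0659 with the block) and -1.95 ± 0.38 for the difference of the changes (adjusted p = 0.00827, or 0.0860 with the block). Probe sets disagreed in CAC tumors: 1450040_at measured 58, 43, 49 and 55 there and 47 and 53 in CAC controls, with a log2 change of 0.03 ± 0.24, and the 3 brighter probe sets each rose by more than 3.

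Timp3, the inhibitor bound to the matrix, which also blocks Adam17, measured 169, 166, 61 and 189 in CAC tumors on probe set 1449335_at, against 38 and 40 in CAC controls. In sporadic tumors it measured 170, 99, 80, 131 and 101, and 41, 131 and 126 in sporadic controls, where tumors and controls overlapped. Timp3 rose by 1.78 ± 0.55 in CAC tumors (adjusted p = 0.0242), and the sporadic change of 0.35 ± 0.46 did not pass (adjusted p = 0.607). The CAC call did not hold without CAC tumor 1, 2 or 4, without either CAC control, or with the replicate number as a block (adjusted p 0.00551 to 0.107 over the alternatives), and the difference between the models did not pass. Timp4 was seen in control epithelium: probe set 1423405_at measured 7, 7, 7 and 7 in CAC tumors, against 44 and 34 in CAC controls, and 7, 7, 6, 7 and 6 in sporadic tumors, against 59, 68 and 67 in sporadic controls. All tumors were at the floor. On that probe set Timp4 fell by 2.47 ± 0.10 in CAC tumors (adjusted p = 6.30e-09) and by 3.29 ± 0.09 in sporadic tumors (adjusted p = 6.59e-11). The falls differed by 0.83 ± 0.14 (adjusted p = 0.00264). The tumors of both models sat at the floor, which limits the falls and adds little to the spread behind these errors. The CAC controls were lower than the sporadic controls by -0.74 ± 0.11 (adjusted p = 0.00117, up to 0.0975 in a fit of the controls alone). The second probe set, 1450974_at, measured 11 in every CAC tumor, against 15 and 12 in CAC controls. There the CAC fall was 0.29 (adjusted p = 0.0312), a call lost in 7 of 19 alternatives (adjusted p up to 0.403). Its sporadic fall was 1.70 (adjusted p = 1.68e-08).

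**Figure D4:**
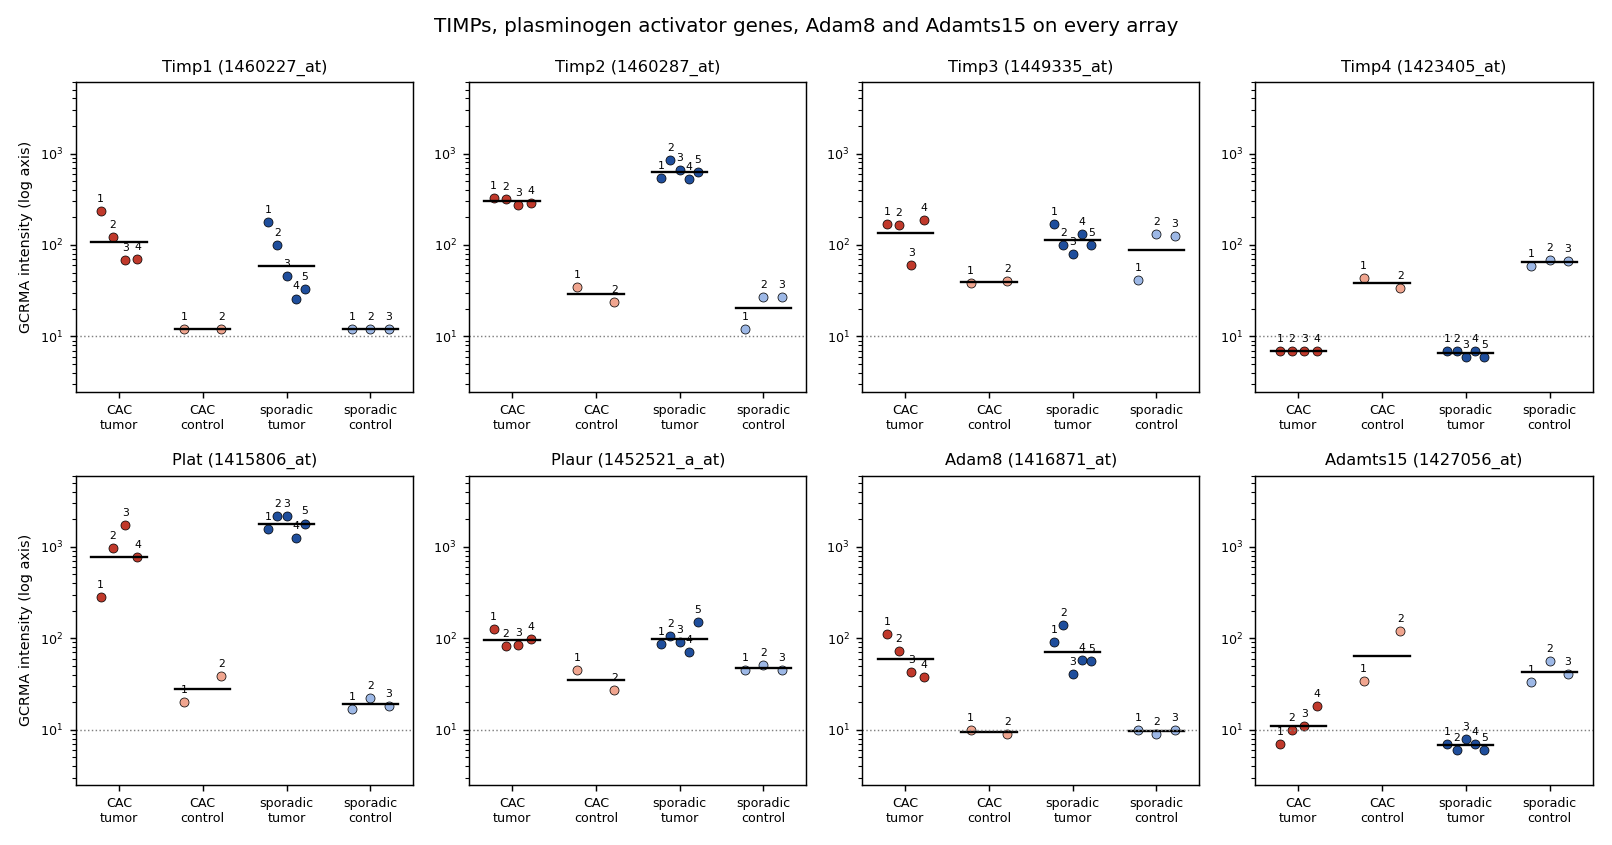
Intensity (log scale) on each array of Timp1 to Timp4, Plat, Plaur, Adam8 and Adamts15, with CAC tumors, CAC controls, sporadic tumors and sporadic controls from left to right. Each point is 1 array marked with its replicate number, the black line is the geometric mean and the dotted line the floor of 10; Timp4 and Adamts15 are the panels in which controls lie above tumors.

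Set directly against sporadic tumors, CAC tumors had 2 members higher and 7 lower, beside 7.88% and 7.58% of all probe sets. The 2 higher ones, Adam11 and Adam23, were under 10 in every group. At a mean of 32 or more, 0 of 27 members were higher and 5 were lower, beside 7.81% and 14.9% of all such probe sets. The 5 were the Mmp14 pair, Mmp15 and 2 Timp2 probe sets, given above. The controls differed too: CAC controls had 10 members higher and 5 lower than sporadic controls, beside 7.61% and 6.4% of all probe sets. At a mean of 32 or more, 3 of 17 were higher and 3 lower, beside 5.06% and 13.4% of all such probe sets. The difference of the tumor changes passed for 3 members upward and 7 downward, beside 3.5% and 4.2% of all probe sets. Among members at a mean of 32 or more it passed for 2 of 31 upward and 4 downward, beside 3.89% and 2.68% of all such probe sets. Mmp11, Mmp17, Timp2 and Timp4 made up 8 of these 10, and the others were Adam15 and Adamts5 near the floor. Between the tumors themselves, Mmp11 (-1.40 ± 0.19, adjusted p = 7.03e-04) and 3 Timp2 probe sets passed as well, while Mmp17 and Timp4 passed between the controls and not between the tumors. One dimmer Timp2 probe set, 1450040_at, was higher in CAC controls than in sporadic controls, by 0.86 ± 0.26 (adjusted p = 0.0492), a call lost in 15 of 20 alternatives (adjusted p up to 0.215, and 0.147 with the block).

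Within a model, single tumors took most of the highest values. Among the 20 members that rose in CAC tumors and had a tumor mean of 32 or more, CAC tumor 1 was highest for 12, and CAC tumor 3 was lowest for 10. Of 21 such members in sporadic tumors, tumor 2 was highest for 13 and tumor 1 for 6, while tumors 3 and 4 were lowest for 8 and 7. These members are not independent readings, since they come from the same arrays. Among sporadic tumors the highest Mmp13 value was 60.4 times the lowest, and the highest Mmp10 value 15.3 times the lowest. Mmp3 and Mmp8 were at the floor in some tumors of each model, so no such ratio is given for them.

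CAC tumor 1 also stood apart in cell markers. Its neutrophil marker sum was 13603, against 3997, 3763 and 549 in CAC tumors 2 to 4, its fibroblast sum was 10328, against 5601, 4690 and 7475, and its mast cell sum was 66, against 1271, 1223 and 550. In CAC tumors only 3 of 6 measured neutrophil markers and 2 of 9 mast cell markers had a mean of 32 or more. Mpo and Fpr1 of the first list were under 10 in every group, as were Cpa3, Mcpt4, Ms4a2 and Fcer1a of the second. Both sums thus rest on few genes. Sporadic tumor 1, the highest for Mmp10, Mmp13 and Timp1, had a fibroblast sum of 13085 and an endothelial sum of 649, each the highest of its model, and the lowest neutrophil sum of its model at 784. Of the 8 endothelial markers, 2 had a mean of 32 or more in sporadic tumors, and Kdr and Tek were under 10 in every group. What part these cells have in the metalloprotease levels was not tested. Without CAC tumor 1 the CAC change was 6.64 for Mmp10, 6.10 for Mmp13, 2.80 for Timp1 and 5.30 for Plat on the log2 scale, and each still passed.

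**Figure D5:**
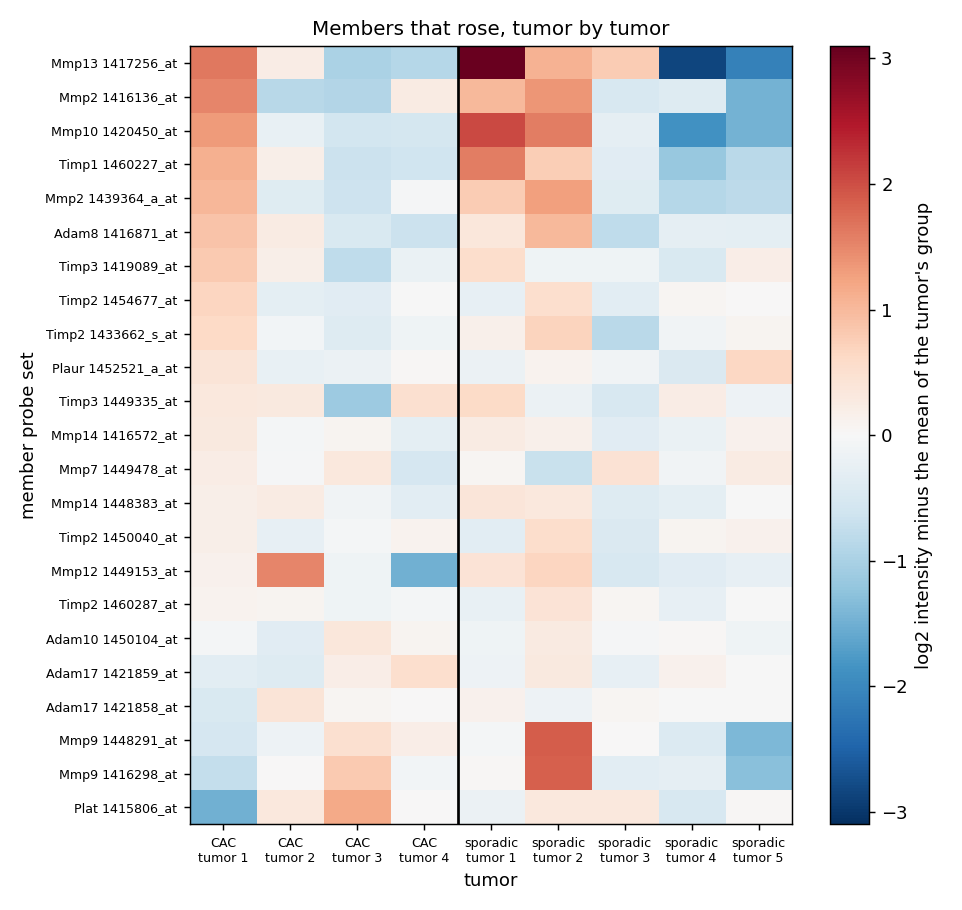
Heat map of log2 intensity minus the mean of the tumor's own group for 23 member probe sets (down the page) in each CAC tumor and each sporadic tumor (across). CAC tumor 1 is high for Mmp10, Mmp13, Mmp2 and Timp1 and low for Plat, and the values run from -2.85 to 3.06.

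Other genes of extracellular proteolysis were taken from a list of 40 genes, of which 37 were measured. In CAC tumors 7 of the 37 rose and 12 fell, beside 14.2% and 25.6% of all probe sets, and in sporadic tumors 8 rose and 12 fell, beside 17.8% and 28.2%. These shares are near those of all probe sets, so the list's counts are no result about it, and single genes are given for their values. Mep1a, the meprin alpha subunit of the brush border, averaged 11.2 in CAC tumors and 809 in CAC controls, and 7.07 in sporadic tumors and 585 in sporadic controls, with log2 changes of -6.17 ± 0.62 and -6.37 ± 0.52. Klk1, tissue kallikrein, averaged 731.5 in CAC tumors and 19360 in CAC controls, and 259.7 in sporadic tumors and 15507 in sporadic controls. Its log2 changes were -4.73 ± 0.80 and -5.90 ± 0.68. Mep1b, the meprin beta subunit, averaged 62.9 in CAC tumors and 529 in CAC controls, and 5.50 in sporadic tumors and 431 in sporadic controls. The inhibitors Spint1 and Spint2, the membrane protease Prss8, the peptidase Dpp4 and the plasminogen receptor Plgrkt fell in both models.

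Among those that rose, Spock2, a matrix proteoglycan, averaged 505 in CAC tumors and 4.00 in CAC controls, and 3479 in sporadic tumors and 4.58 in sporadic controls. It rose by 6.98 and 9.57 on the log2 scale, and CAC tumors were lower than sporadic tumors by -2.79 ± 0.57 (adjusted p = 0.00771). Pcsk6, a proprotein convertase that activates metalloprotease precursors, averaged 53.8 in CAC tumors and 6.00 in CAC controls, and 107.5 in sporadic tumors and 9.25 in sporadic controls, and rose in both. Serpine2, an inhibitor of urokinase and thrombin, averaged 62.6 in CAC tumors and 6.00 in CAC controls, and 42.5 in sporadic tumors and 5.00 in sporadic controls, and also rose in both. Reck, a membrane-bound inhibitor of metalloproteases, was under 10 in every group. Furin, the convertase that activates Mmp11 and Mmp14, rose by 1.14 in sporadic tumors and did not pass in CAC tumors. Plg, the plasminogen gene itself, was at 4.00 in every group.

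Transcripts of many matrix proteins that these enzymes are known to cut were also higher in tumors. Of 20 listed matrix and adhesion substrates 19 were measured, and 13 rose and 1 fell in CAC tumors, beside 14.2% and 25.6% of all probe sets, while 13 rose and 0 fell in sporadic tumors, beside 17.8% and 28.2%. Each gene was read on its brightest probe set, and 15 of the 19 averaged 32 or more in the tumors of either model. Among all probe sets that reach 32 in the groups compared, 28.5% rose in CAC tumors and 33.2% in sporadic tumors. The median log2 change of the 19 was 3.47 in CAC tumors and 3.60 in sporadic tumors. Fn1, fibronectin, rose by 7.03 in CAC tumors and 7.30 in sporadic tumors, and Col1a1, a fibrillar collagen chain, by 4.98 and 5.49. Col4a1, a basement membrane collagen chain, rose by 5.87 and 6.01. The substrate that fell in CAC tumors was Cdh1, E-cadherin, with a log2 change of -0.41. The CAC controls held more of some matrix transcripts than the sporadic controls: Col3a1 averaged 62.6 in CAC controls and 11.6 in sporadic controls (adjusted p = 0.0366), and Dcn, decorin, 62.6 and 7.56 (adjusted p = 0.0118).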

How the data were processed

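Total RNA from tumors and purified epithelium was labelled and hybridised to Affymetrix arrays, per the labels' protocols. The deposited table gives whole-number intensity values that the authors made with GCRMA, per the submitters' processing notes; its version is not given in the sources used here. Both deposited tables hold the same intensities, from 2 to 31599. The authors' fold change (a ratio) with its direction and their p-value, per the file headers, served only as an alternative.

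Here, 64 control probe sets were removed and log2 intensity of 22626 probe sets, with no offset, was fitted with 4 group means over all 14 arrays in limma 3.58.1 (R 4.3.3; 10 residual and 0.543 prior degrees of freedom). P-values were Benjamini-Hochberg adjusted over all 22626 probe sets in each comparison, and 0.05 was the threshold. Errors are standard errors of the contrast. The procedure was checked on simulated data with the same spread in every group and changes in brighter probe sets only. That check does not cover values at the floor or a spread that differs between groups. The number of arrays limits the precision: 2 control pools and 4 tumors in CAC, 3 pools and 5 tumors in sporadic. The tumors are single mice and the controls are pools, so their spread differs in kind, and control pools came from other mice than the tumors.

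The members, the gene lists, the tests and the naming rule were chosen with earlier results of these data known. By that rule any member may be named, and values on every array are given for probe sets with a group mean of 32 or more that passed in at least 1 of 5 comparisons; where a gene has several, the brightest leads and the others are given by their changes or not at all. From 2 further lists up to 6 passing genes per model are named, with Reck; 1 further gene is not reported here. Array values of Mmp3, Mmp8, Mmp11 and Adamts1, and the listed genes Plg, Furin, Spint1, Spint2, Dpp4 and Cdh1, were added after their values were seen. All 56 member symbols are current in RefSeq. Promoter windows are from RefSeq on GRCm38.p6. No detection calls were used.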

Additional observations from a re-analysis of the deposited data

Results flagged for a closer look

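In a few groups 1 tumor lay far from the others. Adamts1 measured 41 in CAC tumor 1, against 13, 12 and 13 in the other CAC tumors. Mmp8 measured 154 in CAC tumor 1, against 5 in each of the other CAC tumors, and a dimmer Timp3 probe set, 1449334_at, measured 33 there. Mmp3 measured 68 in sporadic tumor 1, against 5 or 6 in the other sporadic tumors. On the brighter Timp3 probe set, 1449335_at, CAC tumor 3 was the low one at 61. Of 62 member groups looked at, 5 held such a far sample. The groups were chosen by their brightest array, so a far high tumor could itself bring its group in, as for Mmp8 and Mmp3. Values near the floor also come in whole units. The 3.1 groups expected at 1 in 20 allow for neither point, so the 5 cannot be judged against them.

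The change from control to tumor differed between the models, by the test of the difference itself (CAC change minus sporadic change, log2), for several members. Mmp11 gave -1.57 and Mmp17 gave -0.66. For Timp2 the values were -1.31 on probe set 1450040_at, -1.95 on 1454677_at and -1.56 on 1460287_at. With the replicate number as a block none of these 3 passed (adjusted p = 0.142, 0.0860 and 0.149), and neither did Mmp17 (0.114). The call was lost in 9, 1 and 11 of 19 alternatives for the 3 Timp2 probe sets, over which the highest adjusted p was 0.142, 0.0860 and 0.161. Timp4 gave 0.83 on 1423405_at and 1.42 on 1450974_at, with tumors at 6 or 7 on the first and at 11 on every tumor array of the second. Model and experimental block cannot be told apart in any of these.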

How the results depend on the processing

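No named change that passed turned its direction under an alternative. Of 145 named log2 changes, 25 took either sign, and 0 of those 25 had passed. Of the compared values 2723 stayed on their side of the threshold, 111 lost the call and 17 gained it. Single named changes were followed over the refits only, and the limits of an adjusted p of 0.01 and of 2-fold were not applied to them. Calls held under every refit for 19 of 26 named probe sets in CAC tumors, 24 of 25 in sporadic tumors, 3 of 5 between tumor types, 1 of 7 between controls and 2 of 6 for the difference of changes. The cause of the losses was not tested. In CAC tumors the count of 21 falls became 2 at 2-fold or more, 4 at a group mean of 32 and 2 without the dimmer probe sets. In sporadic tumors the 26 rises became 17 with 1 probe set per gene, and the 17 falls became 4, 4 and 2 under those same 3 limits and 36 with the authors' corrected p in the authors' deposited table. Between tumor types the 2 higher members became 1 at an adjusted p of 0.01, 0 at 2-fold, 0 at a mean of 32, 1 without the dimmer probe sets and 1 with the replicate block, and the 7 lower ones became 4 with 1 probe set per gene. Between controls the 10 higher became 5 at 0.01, 1 at 2-fold, 3 at a mean of 32, 4 without the dimmer probe sets, 6 with only those groups in the fit and 4 with the replicate block. The 5 lower became 3, 1, 3, 2 and 1 under the first 5 of these, and 1 with 1 probe set per gene. For the difference of changes the 3 upward became 1 at 2-fold, 1 with 1 probe set per gene, 0 without the dimmer probe sets and 5 after quantile normalization. The 7 downward became 3 at 0.01, 4 with 1 probe set per gene, 4 at a mean of 32, 3 without the dimmer probe sets and 2 with the replicate block. A fit of only the groups compared cannot give that difference.

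On leaving out 1 array at a time, CAC rises ran from 15 to 21 and falls from 19 to 23, and sporadic rises from 24 to 26 and falls from 14 to 19. Between tumor types the higher ran from 1 (without CAC tumor 4) to 5 (without CAC tumor 2) and the lower from 7 to 9. Between controls the higher ran from 5 (without sporadic control 1 or 2) to 10 and the lower from 3 to 6. The difference of changes ran from 3 to 4 upward and from 5 to 12 (without CAC control 1) downward. With the replicate block there were 19 rises and 19 falls in CAC tumors and 26 and 18 in sporadic tumors. Deviations of arrays with the same number correlated at -0.077 to 0.159. Arrays with different numbers were not compared, so these values cannot show whether the numbers pair the arrays. The count of 39 members not expressed became 37 with arithmetic means, 46 at a floor of 20 and 52 at a floor of 32. CAC controls rest on 2 pools, and intensities near the floor differ by few whole units.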

Other observations

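Several members near the floor showed weak signal in 1 or more tumors, given as values only. Adam19, an ADAM of muscle and bone development that sheds neuregulin, measured 34, 7, 17 and 11 in CAC tumors and 8 and 8 in CAC controls, and 21 in sporadic tumor 1 against 7 on every other sporadic array. Adam28, an ADAM of lymphocytes, measured 27 in CAC tumor 3 and 10 or less on every other array. Adam12 measured 8, 19, 9 and 11 in CAC tumors and 8 and 8 in CAC controls on probe set 1421172_at. In sporadic tumors 1 to 5 that probe set measured 11, 11, 5, 7 and 5, and 5 on each sporadic control. Adamts7 measured 11, 10 and 11 in sporadic tumors 1 to 3, 6 in sporadic tumor 4 and 5 in sporadic tumor 5, and 5 on each sporadic control.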
